A study of Homo sapiens with 6 samples.

Results

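The genes described here are 42 genes of sugar breakdown and of the response to low oxygen: 3 glucose and lactate transporters, 17 glycolytic enzymes, 3 PFKFB enzymes, 2 pyruvate dehydrogenase kinases, 2 HIF alpha subunits, 14 targets of HIF and the cytokine MIF. They were taken by name from a table of 58735 genes, and all 42 were found in it. RNA was sequenced from 6 libraries labelled BxPC-3, an established human line from a pancreatic adenocarcinoma. In 3 of them the cells had been given DMSO, the solvent control, and in 3 they had been given GSK3326595, a small-molecule inhibitor of PRMT5, which places symmetric dimethyl marks on arginine. The title of the series concerns methylation of the Hippo pathway kinase MST2 by PRMT5. The series' design text speaks of a knockdown, but each library's label names the inhibitor, and the labels were followed. The sources used here give no dose, duration of treatment or oxygen level, and both groups carry the label of 1 cell line. Separate cultures are not named in the labels, so the p-values cover the spread between these libraries alone, which may be technical.

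Glycolysis turns glucose into pyruvate in the cytosol, and lactate dehydrogenase turns pyruvate into lactate. Most of its steps can be run by more than 1 gene, and the isozymes differ in tissue, location and control. Hypoxia-inducible factor (HIF) is a pair of an alpha subunit, encoded by HIF1A or EPAS1, and a stable partner. With oxygen present, prolyl hydroxylases of the EGLN family mark the alpha subunit for destruction through VHL, and with oxygen low the pair binds the core sequence ACGTG or GCGTG near genes such as CA9, ADM and VEGFA. Many glycolytic genes are HIF targets as well. HIF activity is set mainly at the protein level, so transcript levels of its subunits do not measure it.

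Values are FPKM, a level corrected for gene length and library size, as the authors deposited them. Whole reads could be recovered from them, 14201282 to 15302555 for the DMSO libraries and 14087260 to 15724750 for the inhibitor libraries. Genes with at least 1 FPKM in at least 3 of the 6 libraries were tested on log2(FPKM + 1) with limma, with Benjamini-Hochberg adjustment over all 13578 genes tested, and a gene is called when its adjusted p is under 0.05. A fold change on this scale understates that of genes with low values. PRMT5 itself fell from 24.7 to 12.7 FPKM (log2 fold change -0.90, SE 0.11, limma adjusted p = 0.00493), which is a measure of its transcript and not of the enzyme's activity.

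One of the inhibitor libraries, replicate 2, did not resemble the rest of its group. Its Pearson correlations over genes with inhibitor replicates 1 and 3 were 0.906 and 0.904, against 0.980 between those. Mitochondrial genes took 11.3% of its reads. They took 6.03% and 5.84% in the other inhibitor libraries and 4.70% to 5.01% in the DMSO libraries. Of its reads in nuclear coding genes, those under 1.5 kb took 1.09%, against 2.27% to 2.61% in the other 5 libraries. Each result below is therefore also given without it where that changes the call. Of 12 markers of pancreatic duct and epithelium, 4 were at 0 in all libraries (KRT19, PDX1, CEACAM6 and ESRP1) and 6 passed the filter. EPCAM and CDH1 did not pass. EPCAM was at 0.108 to 0.341 FPKM over all libraries. CDH1 was at 0.0884 to 0.142 FPKM with DMSO and 0.375 to 0.496 FPKM with the inhibitor. The summed level of the 12 was 679 to 760 FPKM with DMSO and 793 to 1044 FPKM with the inhibitor. KRT8, KRT18 and MUC1 were higher in all 3 inhibitor libraries, while KRT7 (154 to 177 FPKM with DMSO, 101 to 105 FPKM with the inhibitor), SOX9 (2.93 to 4.17, 2.09 to 2.37) and CLDN4 (3.86 to 5.47, 1.84 to 2.88) were lower in all 3. Summed over 8 mesenchymal and fibroblast markers, of which 2 were at 0 in all libraries, the level was 63.4 to 71.2 FPKM and 81.6 to 104 FPKM. VIM alone was at 58.1 to 66.1 FPKM with DMSO and 66.1 to 93.2 FPKM with the inhibitor. The summed levels of immune, endothelial, erythroid and acinar or endocrine markers reached at most 1.46 FPKM in any library. BxPC-3 is catalogued as having lost CDKN2A and SMAD4, whose transcripts averaged 107 and 3.64 FPKM in the DMSO libraries. These 2 levels are at odds with that record, so the label BxPC-3 is in doubt, and the identity of the line was not tested. What these marker levels mean for the results was not tested, and in bulk RNA fewer cells of a type and less RNA per cell cannot be told apart.

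Together the 42 genes took 2.11%, 2.11% and 2.21% of the reads with DMSO and 2.58%, 2.26% and 2.66% with the inhibitor, so that each inhibitor library held more than each DMSO library. Of the 42 genes, 41 passed the filter. PDK3 and EGLN3 passed only through the inhibitor libraries, so they had to differ, and MIF did not pass. With the inhibitor, 13 of the 41 were called, or 31.7%, against 17.2% of all genes tested. Of the 13, 9 rose (7.18% of all genes tested did) and 4 fell (10.0% of all). The 9 were GPI, PFKL, LDHA, PFKFB4, PDK3, BNIP3, BNIP3L, EGLN3 and NDRG1, and the 4 were HK1, PFKFB3, EPAS1 and ADM. Leaving out PDK3 and EGLN3, 7 rose and 4 fell among 39, or 28.2%. The 3 inhibitor libraries all lay above or all below the 3 DMSO libraries for 23 of the 41 genes, or 56.1%, against 45.9% of all genes tested. Of the 23, 16 lay higher (19.2% of all genes did) and 7 lower (26.7% of all). PDK3 and EGLN3 are among the 16, and without them 21 of 39 did not overlap, or 53.8%, with 14 higher and 7 lower. By limma-voom on the recovered reads 14 were called, or 10 higher and 4 lower, against 18.8% of all genes called, 8.01% higher and 10.8% lower; GAPDH was the addition. The split moved with the scaling: after quantile normalization 12 rose and 2 fell, against 15.4% of all genes called, without HK1 and EPAS1 among the calls, while over all genes tested the calls went from 975 higher and 1364 lower to 1037 and 1053. With TPM scaling LDHA and NDRG1 were not called, and with a trend on gene length removed NDRG1 was not.

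These calls depend on the libraries used. Without DMSO replicate 1 or without DMSO replicate 2, limma called 0 of the 41, with 16 and 15 at an unadjusted p under 0.05, against 18 with all libraries. In those fits 3.52% and 3.76% of all genes tested were called. Without DMSO replicate 3 it called 2, GPI and PFKFB4, against 4.26% of all genes. Without inhibitor replicate 1 it called 6, against 8.04% of all, and without inhibitor replicate 3 it called 8, against 9.57% of all. Without inhibitor replicate 2 it called 25, or 61.0%, against 40.6% of all genes tested. Of these 19 were higher (17.5% of all) and 6 lower (23.1% of all), and all 13 calls made with all libraries were among them. When PDK3 and EGLN3 are not counted, that fit called 23 of 39, or 59.0%. In each of these 6 fits, all 13 genes kept the sign of their change.

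**Figure D1:**
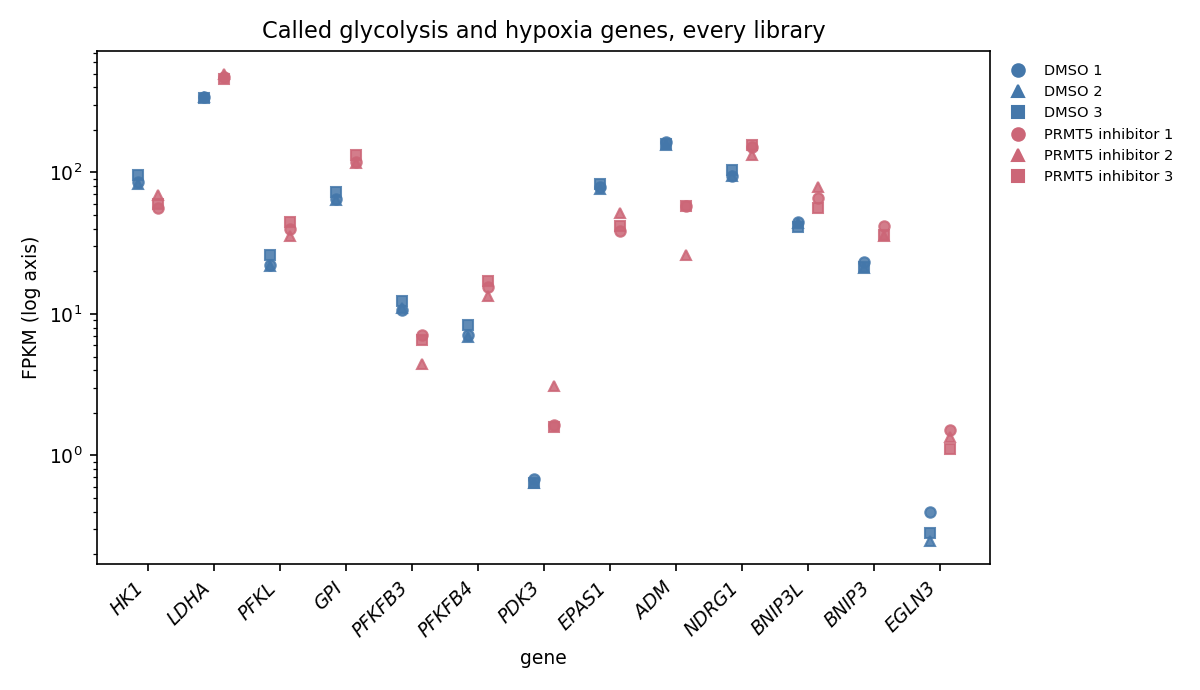
FPKM (log axis) of the 13 called genes in each of the 3 DMSO and 3 inhibitor libraries, 1 point per library. For every gene the inhibitor libraries lie on 1 side of the DMSO libraries; for ADM, inhibitor replicate 2 is the lowest, at 26.0 FPKM.

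None of the 3 transporters was called by limma, with all libraries or without inhibitor replicate 2, or by limma-voom. The smallest unadjusted p, with all libraries, was 0.0874, for SLC2A1. SLC2A1, the widespread glucose carrier GLUT1, was at 50.5 to 57.8 FPKM with DMSO and 33.5 to 48.9 FPKM with the inhibitor, which gave -0.35 on the log2 scale (limma adjusted p = 0.205), and the groups did not overlap. SLC2A3, the glucose carrier GLUT3, lay between 5.95 and 6.86 FPKM in all libraries. SLC16A3, the lactate exporter MCT4, was at 55.4 to 65.8 FPKM with DMSO and at 61.8, 33.5 and 68.8 FPKM in inhibitor replicates 1 to 3. Its log2 fold change was -0.20 with all libraries and 0.11 without inhibitor replicate 2, so that library sets the sign.

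Among the 17 glycolytic enzymes, GPI, PFKL and LDHA rose, HK1 fell and 13 were not called. That is 23.5% of the list, against the 17.2% of all genes tested, and the list's median log2 fold change was 0.17, against -0.05 for all genes tested. The most abundant of them are given next, then the called ones in the order of the pathway.

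GAPDH, which oxidises glyceraldehyde 3-phosphate, was the highest of all 42, at 1166, 1140 and 1281 FPKM with DMSO and 1550, 1688 and 1718 FPKM with the inhibitor. The groups did not overlap, but its log2 fold change of 0.47 was not called (limma adjusted p = 0.071). ENO1, the main enolase, followed at 720 to 808 FPKM with DMSO and 738 to 803 FPKM with the inhibitor, with overlapping groups. Summed over the 17 enzymes the level was 3638 ± 189 FPKM with DMSO and 4451 ± 195 FPKM with the inhibitor (SD, n = 3 each), and GAPDH made up 32.8% and 37.2% of it. Without GAPDH the sums were 2443 ± 115 and 2799 ± 193 FPKM, and DMSO replicate 3 (2576) came close to inhibitor replicate 2 (2579).

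HK1 is a hexokinase, which traps glucose in the cell as glucose 6-phosphate. It fell from 85.6, 82.5 and 96.6 FPKM to 56.4, 69.0 and 60.3 FPKM, a log2 fold change of -0.51 (SE 0.13, limma adjusted p = 0.0443). HK2, the hexokinase that is inducible in many tumours, was at 52.2 to 59.7 FPKM with DMSO and 53.9 to 57.0 FPKM with the inhibitor. GPI converts glucose 6-phosphate to fructose 6-phosphate and lies on chromosome 19 (hg38, 34359480 to 34402413). It rose from 64.5, 63.5 and 73.2 FPKM to 119, 116 and 132 FPKM, the largest log2 fold change among the enzymes at 0.86 (SE 0.12, limma adjusted p = 0.00821). PFKL, the liver-type phosphofructokinase of the committing step, rose from 22.2, 22.0 and 25.9 FPKM to 40.1, 35.5 and 44.8 FPKM (log2 fold change 0.75, SE 0.13, limma adjusted p = 0.0157). The other phosphofructokinases, PFKM and PFKP, had log2 fold changes of -0.06 and -0.19 and were not called. LDHA, the dehydrogenase subunit that favours lactate formation, rose from 341, 344 and 337 FPKM to 472, 496 and 461 FPKM (log2 fold change 0.48, SE 0.12, limma adjusted p = 0.0379). LDHB was at 15.3 to 17.1 FPKM with DMSO and 16.9 to 23.4 FPKM after treatment, without a call.

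Several of the other enzymes were high in inhibitor replicates 1 and 3 but not in replicate 2. PGK1, the first ATP-forming enzyme, was at 276, 280 and 280 FPKM with DMSO and 416, 259 and 415 FPKM with the inhibitor. TPI1, which interconverts the triose phosphates, was at 287, 283 and 315 FPKM with DMSO and 345, 194 and 343 FPKM with the inhibitor. ALDOC, an aldolase, was at 49.96, 53.9 and 60.6 FPKM with DMSO and 102, 46.7 and 109 FPKM with the inhibitor. In all 3 genes the groups overlapped through inhibitor replicate 2. Without that library ALDOC, TPI1, GAPDH, PGK1, PGAM1 and ENO2 were also called, all higher, which made 9 higher and 1 lower of 17, or 58.8%, against 40.6% of all genes tested. Their log2 fold changes were then 0.94 for ALDOC, 0.58 for PGK1, 0.57 for ENO2, 0.45 for GAPDH, 0.33 for PGAM1 and 0.22 for TPI1. ENO1, PKM (the pyruvate kinase), HK2, PFKM, PFKP, ALDOA and LDHB were called in neither fit.

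**Figure D2:**
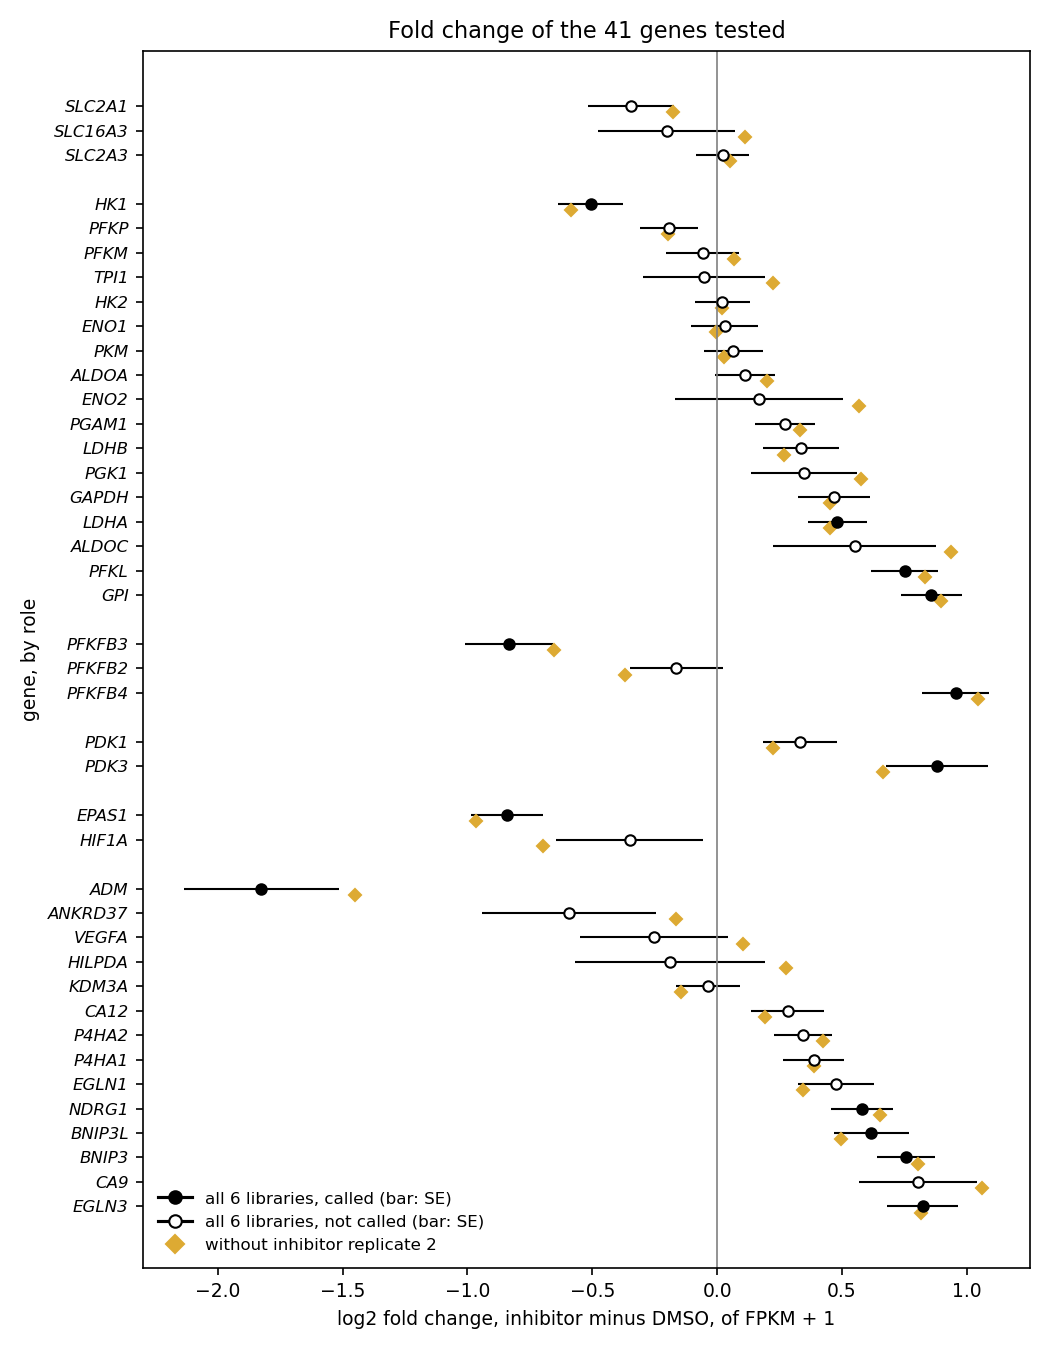
Log2 fold change of FPKM + 1, inhibitor against DMSO, of the tested genes by list, with all 6 libraries and without inhibitor replicate 2; bars are standard errors of the fit with all libraries, and filled circles are called genes. The glycolytic enzymes run from -0.51 (HK1) to 0.86 (GPI) and the HIF targets from -1.83 (ADM) to 0.82 (EGLN3).

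The PFKFB enzymes make and remove fructose 2,6-bisphosphate, the strongest activator of phosphofructokinase, and here 2 of the 3 moved in opposite directions. PFKFB4 rose from 7.05, 6.89 and 8.32 FPKM to 15.5, 13.4 and 17.2 FPKM (log2 fold change 0.96, SE 0.13, limma adjusted p = 0.00825), the largest rise on this scale among the 41 genes. PFKFB3, the form with the highest kinase activity, fell from 10.7, 11.0 and 12.3 FPKM to 7.10, 4.40 and 6.55 FPKM (log2 fold change -0.83, SE 0.18, limma adjusted p = 0.0249). PFKFB2 was at 11.2 to 11.7 FPKM with DMSO and at 8.76, 13.8 and 8.63 FPKM in inhibitor replicates 1 to 3. It was called only without inhibitor replicate 2, at -0.37.

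The makeup of several isozyme families shifted with these changes. The share of PFKFB4 in the summed FPKM of PFKFB2, PFKFB3 and PFKFB4 was 24.5% ± 1.17 with DMSO and 48.3% ± 5.50 with the inhibitor (SD, n = 3 each), while that of PFKFB3 was 37.4% ± 0.93 and 18.9% ± 4.51. Among the phosphofructokinases PFKL held 18.8% ± 0.27 and 30.5% ± 1.24, and PFKP, the largest, 56.6% ± 0.75 and 47.0% ± 3.29. HK1 held 61.7% ± 0.52 of the summed hexokinases HK1 and HK2 with DMSO and 52.6% ± 2.39 with the inhibitor. In each of these 5 cases the 3 libraries of 1 group lay above the 3 of the other. LDHA held 95.3% to 96.5% of the lactate dehydrogenase pair in all libraries, and its share overlapped between groups. For 3 libraries against 3, an exact permutation test cannot give a two-sided p below 0.1, so these shares were not tested.

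**Figure D3:**
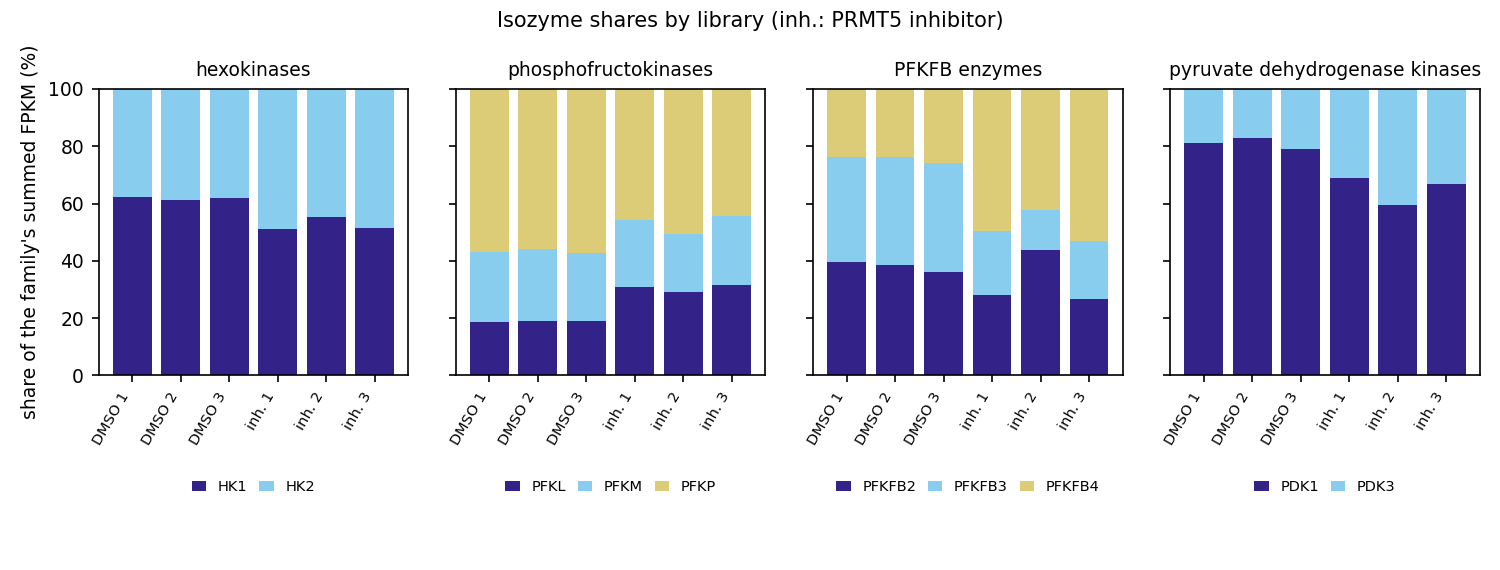
Share, in percent of the family's summed FPKM, of each isozyme in each library, as stacked bars. PFKFB4, PFKL, HK2 and PDK3 take larger shares in all 3 inhibitor libraries, and PFKFB3, PFKP, HK1 and PDK1 smaller ones.

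Pyruvate dehydrogenase kinases hold back entry of pyruvate into the mitochondrial cycle. PDK3 was at 0.684, 0.634 and 0.641 FPKM with DMSO and 1.65, 3.11 and 1.59 FPKM in the inhibitor libraries (log2 fold change 0.88, SE 0.20, limma adjusted p = 0.0328). It had 614 reads over all libraries and passed the filter only in the inhibitor group, so its call says little beyond that. PDK1 was at 2.41 to 3.04 FPKM with DMSO and 3.20 to 4.56 FPKM in the inhibitor libraries. The log2 fold change of 0.33 was not called, although the groups did not overlap.

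Of the HIF alpha subunits, EPAS1 (HIF-2 alpha) fell from 78.3, 76.4 and 82.8 FPKM to 38.5, 52.1 and 41.7 FPKM, a log2 fold change of -0.84 (SE 0.14, limma adjusted p = 0.0138). HIF1A (HIF-1 alpha) was at 59.1, 59.0 and 52.1 FPKM with DMSO and at 36.0, 72.2 and 33.1 FPKM in inhibitor replicates 1, 2 and 3. Inhibitor replicate 2 was thus the highest of all libraries and replicates 1 and 3 the lowest. HIF1A's log2 fold change was -0.35 and not called with all libraries (limma adjusted p = 0.434). Without inhibitor replicate 2 it was -0.70 and called (limma adjusted p = 0.002).

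Among the 14 HIF targets, BNIP3, BNIP3L, EGLN3 and NDRG1 rose, ADM fell and 9 were not called. That is 35.7% of the list, against 17.2% of all genes tested. Their median log2 fold change was 0.37, and 8 of the 14 lay higher and 2 lower without overlap, or 71.4%, against 45.9% of all genes tested. EGLN3 passed the filter only through the inhibitor libraries; without it 4 of 13 were called, or 30.8%, 9 of 13 did not overlap, or 69.2%, and the median was 0.34. Without inhibitor replicate 2, 8 rose and 1 fell, or 64.3% of the 14, against 40.6% of all genes tested, with CA9, EGLN1, P4HA1 and P4HA2 added. When EGLN3 is not counted, that fit called 8 of 13, or 61.5%.

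BNIP3 and BNIP3L encode mitochondrial proteins that mark mitochondria for removal. BNIP3 rose from 23.3, 21.1 and 21.6 FPKM to 42.1, 35.3 and 36.3 FPKM (log2 fold change 0.76, SE 0.12, limma adjusted p = 0.0109), and BNIP3L from 44.6, 43.8 and 40.9 FPKM to 66.0, 79.2 and 56.5 FPKM (0.62, SE 0.15, adjusted p = 0.0364). NDRG1, a stress-responsive gene strongly induced by hypoxia, rose from 94.2, 93.8 and 104 FPKM to 151, 132 and 156 FPKM (log2 fold change 0.58, SE 0.12, limma adjusted p = 0.0261). In these 3 genes every inhibitor library lay above every DMSO library.

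EGLN3 and EGLN1 encode prolyl hydroxylases that act back on HIF. EGLN3 was at 0.400, 0.251 and 0.285 FPKM with DMSO and 1.53, 1.34 and 1.11 FPKM in the inhibitor libraries, a ratio of means of 4.25 (log2 fold change 0.82 on the FPKM + 1 scale, SE 0.14, limma adjusted p = 0.0143). It had 553 reads over all libraries and, like PDK3, passed the filter only through the inhibitor group. EGLN1, at 13.3 to 15.6 FPKM with DMSO and 17.7 to 24.8 FPKM after treatment, was not called (log2 fold change 0.48, limma adjusted p = 0.076). P4HA1 and P4HA2, prolyl hydroxylases of collagen, had log2 fold changes of 0.39 and 0.34 and groups that did not overlap, and were called only without inhibitor replicate 2.

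ADM, the secreted vasodilator adrenomedullin, moved the other way, and by the most of all 41. It fell from 164, 156 and 160 FPKM to 57.8, 26.0 and 57.9 FPKM (log2 fold change -1.83, SE 0.31, limma adjusted p = 0.0140), and without inhibitor replicate 2 the change was -1.45. VEGFA, the angiogenic growth factor, was at 17.4 to 18.6 FPKM with DMSO and 19.1, 8.69 and 19.6 FPKM after treatment. HILPDA, a lipid droplet protein, was at 16.3 to 20.1 FPKM and at 22.0, 7.83 and 22.3 FPKM. Neither VEGFA nor HILPDA was called, and both changed sign without inhibitor replicate 2, from -0.25 to 0.10 and from -0.19 to 0.28 on the log2 scale. CA9, the carbonic anhydrase often used as a hypoxia marker, was low, at 0.957, 1.31 and 0.930 FPKM with DMSO and 3.43, 1.52 and 3.16 FPKM with the inhibitor. It had 294 reads in all and was called only without inhibitor replicate 2, at 1.06. CA12, another carbonic anhydrase, ANKRD37, a small ankyrin repeat protein, and KDM3A, a histone demethylase, had log2 fold changes of 0.28, -0.59 and -0.04 and were called in neither fit.

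The core of the HIF binding sequence was looked for in the 250 bases upstream of each RefSeq gene start (GRCh38.p14), as ACGTG or GCGTG on either strand; RefSeq windows were at hand for 36 of the 42 genes, with more than 1 start for some. CACGTG, the E-box, which contains ACGTG, was counted too. A match was present in 43.2% of all 35116 windows and in 49.3% of those of protein-coding genes. It was present in 9 of 11 windows of HIF targets (81.8%) and in 19 of 37 windows of glycolytic enzymes (51.4%). At least 1 window held it for 8 of 10 HIF targets and 14 of 17 glycolytic enzymes. Some of the enzymes have up to 7 windows, and the share of all genes with at least 1 such window was not counted. These counts by gene therefore have no background to be read against. EGLN3, which rose, had no match. A match is a description of the letters and not a site shown to be bound. The bases around the match nearest the start are printed for the called genes with a match and a single RefSeq window, of either direction; HK1, LDHA and PFKFB3 have more than 1 window and are not printed. Each is written 5′ to 3′ on the gene's strand with the core in capitals.
GPI, rose: actgcctgtaACGTGgaaggtgttc
PFKFB4, rose: agttgggcatGCGTGgtcggaggcc
PFKL, rose: ctcagggcccGCGTGacattgcaca
PDK3, rose: cgcgccgcgtACGTGcagcaaccga
EPAS1, fell: gcctgccggcGCGTGcccgcccaca
ADM, fell: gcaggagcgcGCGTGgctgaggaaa

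These cores begin 162 bases before the RefSeq start for GPI (chr19:34364820-34364844), 166 for PFKFB4 (chr3:48556955-48556979, minus strand), 164 for PFKL (chr21:44299879-44299903), 61 for PDK3 (chrX:24465215-24465239), 117 for EPAS1 (chr2:46297280-46297304) and 101 for ADM (chr11:10304962-10304986). GENCODE 29 places the printed bases of GPI, ADM and PDK3 in an exon and untranslated region of a transcript of the same gene, those of PFKFB4 and EPAS1 within the gene outside its exons, and those of PFKL outside any gene. BNIP3 held the most matches of the printed genes, 6, of which a pair are the strands of 1 CACGTG. They lie 143 to 104 bases before the start, in the 160 bases outside annotated exons (chr10:131982014-131982173, minus strand), where CACGC is GCGTG on the other strand.
BNIP3, rose: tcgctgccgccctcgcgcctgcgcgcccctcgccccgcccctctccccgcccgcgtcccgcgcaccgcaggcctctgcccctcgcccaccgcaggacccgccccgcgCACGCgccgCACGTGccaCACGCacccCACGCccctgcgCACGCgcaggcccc

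Set side by side, the glycolytic enzymes and the HIF targets did not separate in a way that held for each summary. The median log2 fold change was 0.17 over the 17 enzymes and 0.37 over the 14 targets, a difference of 0.20. Without inhibitor replicate 2 or without DMSO replicate 3 the difference was 0.10, and without inhibitor replicate 3 it was 0.29. The means had the other order, 0.21 for the enzymes and 0.16 for the targets, and without inhibitor replicate 2 they were 0.30 and 0.27. ADM lies far below the other targets and enters the mean but hardly the median. The targets also ran over a wider range, from -1.83 to 0.82, against -0.51 to 0.86. Compared with the mean of the DMSO libraries, the median change of the enzymes was 0.33, 0.02 and 0.22 in inhibitor replicates 1, 2 and 3, and -0.04, -0.05 and 0.10 in the DMSO libraries. That of the targets was 0.42, 0.34 and 0.32, against 0.05, -0.03 and -0.03. The enzymes' median changes overlapped between groups, since inhibitor replicate 2 lay under DMSO replicate 3, and those of the targets did not. The targets' median level, in log2(FPKM + 1), did overlap. It was 4.05 to 4.15 with DMSO and 4.34, 3.72 and 4.29 in inhibitor replicates 1, 2 and 3. Minus the enzymes' median level, it was -2.16 to -1.96 with DMSO and -2.49 to -2.34 with the inhibitor. By that measure the targets lay lower in every inhibitor library, opposite in direction to the 0.20 above. However, the enzyme at the median differed between libraries, for example PFKP in DMSO replicate 1 and ALDOC in inhibitor replicate 1. That measure therefore does not follow the same genes. The targets' median change minus that of the enzymes was 0.0898, 0.315 and 0.104 in inhibitor replicates 1, 2 and 3. In DMSO replicates 1, 2 and 3 it was 0.0891, 0.0247 and -0.129.

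**Figure D4:**
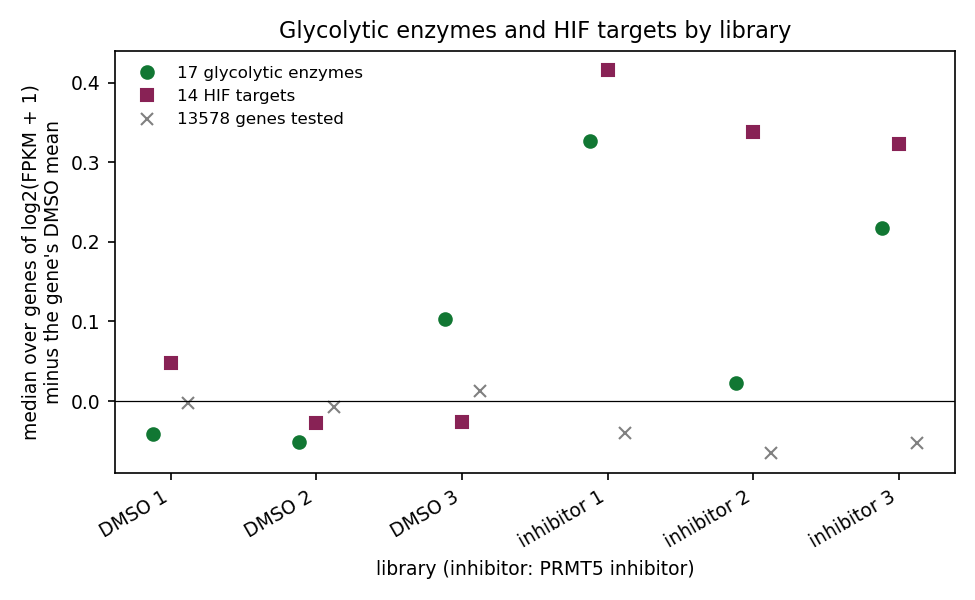
Median change in log2(FPKM + 1) from the mean of the DMSO libraries, per library, for the 17 glycolytic enzymes, the 14 HIF targets and all genes tested. The targets lie at 0.32 to 0.42 in the inhibitor libraries, the enzymes at 0.02 to 0.33, and all genes at -0.07 to -0.04.

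Inhibitor replicate 2 differed from the mean of inhibitor replicates 1 and 3 by more than 0.5 on the log2 scale in 15 of the 41 genes. It was lower in 12, or 29.3%, and higher in 3, or 7.32%, against 23.7% and 17.5% of all genes tested. The 12 were HILPDA (-1.39), ANKRD37 (-1.28), ENO2 (-1.20), ALDOC (-1.16), ADM (-1.12), VEGFA (-1.07), SLC16A3 (-0.94), TPI1 (-0.83), CA9 (-0.77), PGK1 (-0.68), PFKFB3 (-0.53) and SLC2A1 (-0.52). The 3 were HIF1A (1.04), PDK3 (0.65) and PFKFB2 (0.61). Among the 12 are 5 of the 14 HIF targets, or 35.7%, and 4 of the 17 enzymes, or 23.5%. This library also differed from the others in its mitochondrial share and its share of short genes, and the part of these shares in the values above was not tested.

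**Figure D5:**
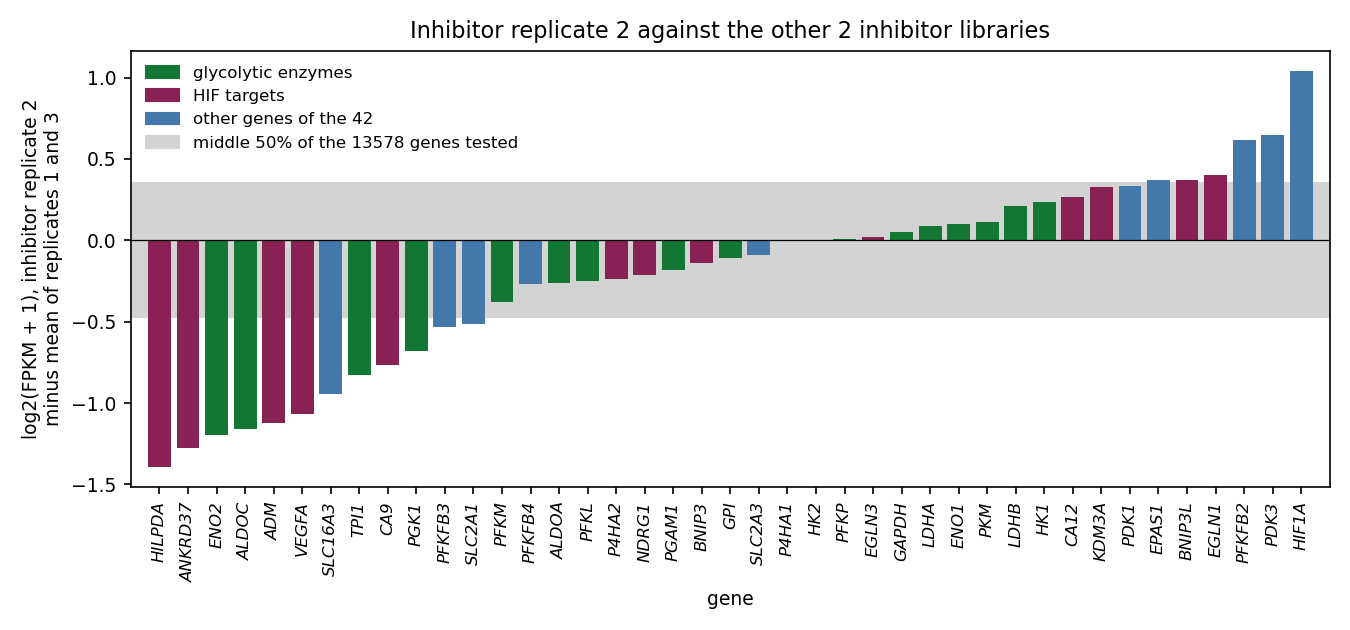
Log2(FPKM + 1) of inhibitor replicate 2 minus the mean of inhibitor replicates 1 and 3, for each of the 41 genes tested. HILPDA is lowest at -1.39 and HIF1A highest at 1.04; the band gives the middle of all genes tested, from -0.47 to 0.35.

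Some of the 42 share sequence with other annotated genes, and the sources do not say if the counting used strand. Of ALDOA's exon bases, 42.3% lie in the exons of a same-strand gene, AC093512.2, and ALDOA was listed at only 5.02 to 6.31 FPKM. For LDHB that share was 33.4%, with a same-strand gene listed at 0. CA9 shares 38.5% of its exon bases with ARHGEF39 on the opposite strand, at 2.03 FPKM, and ANKRD37 shares 35.2% with UFSP2, at 2.73 FPKM. The levels of these 4 are uncertain for that reason, and so is ALDOC's share of the aldolases. MIF shares 61.9% of its exon bases with MIF-AS1 and 32.2% with a same-strand gene. It was listed at 0.865, 0.739 and 0.670 FPKM with DMSO and 0.385, 0.202 and 0.553 FPKM with the inhibitor, 58 reads in all, and was not tested. GAPDH has 62 pseudogenes named for it, whose reads came to 0.433% of its own, and BNIP3 has 39, with 2.10%.

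In the wider pathway, 38 of 52 other genes of glucose metabolism were tested, and 2 rose and 4 fell, with a median log2 fold change of 0.10. The called genes were 15.8% of the list, against 17.2% of all genes tested. Without inhibitor replicate 2, 11 rose and 5 fell, or 42.1%, against 40.6% of all genes tested. PDP1, the phosphatase that reverses the pyruvate dehydrogenase kinases, fell from 17.2 to 4.86 FPKM (limma adjusted p = 0.00267). SLC2A4, the insulin-responsive carrier GLUT4, went from 0.513 to 1.97 FPKM and passed the filter only through the inhibitor libraries. HKDC1, a hexokinase-like gene, was at 5.25 ± 0.592 FPKM with DMSO and 0.497 ± 0.184 FPKM with the inhibitor (SD, n = 3 each) and passed only through the DMSO libraries. Both had to differ, and without them 4 of 36 genes were called, or 11.1%. Without inhibitor replicate 2 as well, 14 of 36 were called, or 38.9%.

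Of 14 tested regulators of the HIF pathway, 3 fell and the other 11 were not called, with a median log2 fold change of -0.31. That is 21.4%, against 17.2% of all genes tested (10.0% lower). They were ARNT2, a partner of the alpha subunits, at 2.61 FPKM with DMSO and 0.332 FPKM with the inhibitor, VHL, from 24.6 to 25.6 FPKM in the DMSO libraries to 15.9 to 18.3 FPKM (0.0202), and CITED2, a competitor for the coactivators of HIF, from 64.9 to 39.2 FPKM (0.0201); the values in brackets are limma adjusted p. ARNT2 passed the filter only through the DMSO libraries and so had to differ; without it 2 of 13 fell, or 15.4%. Without inhibitor replicate 2, 5 of the 14 fell, or 35.7%, against 40.6% of all genes tested. When ARNT2 is not counted, that fit called 4 of 13, or 30.8%. Of 34 other HIF-responsive genes tested, 6 rose and 5 fell, with a median of 0.18, and without inhibitor replicate 2, 14 rose and 10 fell. Those are 32.4% and 70.6% of the list, against 17.2% and 40.6% of all genes tested. TFRC, the transferrin receptor, fell from 97.8 ± 4.51 to 17.7 ± 2.10 FPKM (SD, n = 3 each, limma adjusted p = 0.000662). CXCR4, a chemokine receptor, fell from 11.1 to 1.53 FPKM (limma adjusted p = 0.000663), and TGFBI, a matrix protein, from 7.56 to 2.94 FPKM (limma adjusted p = 0.00301). PPP1R3C, which targets a phosphatase to glycogen, rose from 5.86 to 15.6 FPKM (limma adjusted p = 0.00351). PDP1, TFRC, CXCR4, TGFBI and PPP1R3C were called in each of the 6 fits that left out 1 library.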

How the data were processed

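RNA was sequenced from 3 DMSO and 3 inhibitor libraries; the authors deposited FPKM values for 58735 genes with gene lengths, and hg38 was the build per the submitters' processing notes. No aligner or counter is given in the sources used here. FPKM times gene length gave whole reads, within 0.01 reads, for all values above 0, and the recovered reads came to 89881373. The 42 genes and the wider lists were chosen with earlier results of these data known. Genes with at least 1 FPKM in 3 libraries were fitted as log2(FPKM + 1) with limma 3.58.1 in R 4.3.3 (mean-variance trend, two-sided, no block) and adjusted by Benjamini-Hochberg over the 13578 genes tested; the script was tested on simulated data. All 42 genes are named; from each wider list, up to 4 called genes with the smallest adjusted p, of which 1 is not reported here. Alternatives were pseudocounts of 0.1 and 0.5, no filter, a filter at 5 FPKM, quantile and TPM scaling, totals that left out mitochondrial genes and the 50 most abundant others, no trend, limma-voom on recovered reads, a replicate block, removal of a trend on gene length, leaving out each library, and a regrouped HIF list. Promoter sequences are from RefSeq (GRCh38.p14); printing was planned for HIF targets only, and was widened to other called genes and narrowed to short windows after values were seen. Exon overlaps are from GENCODE 29. Python 3.11.15, numpy 2.4.6, pandas 2.3.3 and matplotlib 3.10.9 were used.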

Additional observations from a re-analysis of the deposited data

How the results depend on the processing

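Pseudocounts, a fit without a trend, limma-voom and the rescaling without abundant genes left the counts over the lists within 1.5 times. Without a filter, 1533 of 31192 genes, 7 of the 42, 2 enzymes and 3 HIF targets were called. With a filter at 5 FPKM, 1505 of 7382 genes were called, a larger share than with the filter at 1 FPKM. Of the 42 genes 36 were tested there and 11 called, 7 higher and 4 lower. With a replicate block, 1478 genes, 8 of the 42, 2 enzymes and 3 targets were called. The labels do not say that the numbers mark pairs. Correlations of deviations from the group means were -0.0179, 0.157 and 0.248 for the same number. For different numbers they ran from -0.209 to 0.0920. Not every library correlated best with its own number, and so few libraries cannot show if the numbers mark pairs. The regrouped HIF list is the 14 HIF targets with SLC2A1, SLC2A3, HK2, PFKFB3, PFKFB4, ALDOA, ALDOC, PGK1, ENO1, LDHA, PDK1 and SLC16A3. In it 8 genes were called with all libraries, where 17.2% of all genes tested were. BNIP3, BNIP3L, EGLN3, NDRG1, PFKFB4 and LDHA were higher, and PFKFB3 and ADM lower. EGLN3 passed the filter only through the inhibitor libraries. Leaving out 1 library gave 478 to 5513 calls over all genes, 0 to 25 of the 42, 0 to 10 enzymes and 0 to 9 targets, and a difference of medians of 0.10 to 0.29. Signs turned for genes that were not called: with TPM scaling SLC2A3 (-0.0074), HK2 (-0.013) and ENO1 (-0.0040); with quantile scaling PFKM (0.11), TPI1 (0.081) and KDM3A (0.067); with the length trend removed TPI1 (0.10). Leaving out 1 library, the log2 fold change ran from -0.037 to 0.051 for SLC2A3, -0.40 to 0.11 for SLC16A3, -0.013 to 0.083 for HK2, -0.16 to 0.069 for PFKM, -0.19 to 0.22 for TPI1, -0.0027 to 0.083 for ENO1, -0.075 to 0.57 for ENO2, -0.44 to 0.10 for VEGFA, -0.15 to 0.039 for KDM3A and -0.42 to 0.28 for HILPDA. The causes were not tested. Depth limits MIF, CA9, EGLN3 and PDK3, with 58, 294, 553 and 614 reads over the 6 libraries.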
